A study of Homo sapiens with 6 samples.

Results

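The comparison described here is that of JJN3 cells given WNK463 for 2 h with JJN3 cells given the vehicle DMSO, the earliest of the treatment times in the study. It rests on 4 of the 6 RNA-seq libraries of the series, 2 per group, and on every gene with at least 10 counts in at least 2 of those 4 libraries, which is 15187 of the 60728 genes in the count table. JJN3 is an established multiple myeloma line, grown from malignant plasma cells, and both groups carry the genotype label WT. The treated group received WNK463, a small molecule that inhibits WNK kinases, at a dose that the sample protocol gives as 5 µM and the series design as 1 µM. The control group received DMSO, and its time label reads only "control", so time in culture and treatment cannot be told apart. The remaining libraries, from a later time of treatment, entered only the estimate of spread. All libraries come from 1 cell line, and nothing in the labels says whether replicates were separate cultures, so a p-value here reflects no more than how far these particular libraries scatter, which may be technical.

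WNK kinases lack the lysine that most kinases use at its usual place, sense chloride and cell volume, and phosphorylate the related kinases OSR1 (gene OXSR1) and SPAK (gene STK39). Those in turn switch the SLC12 cotransporters, activating the sodium-driven importers of chloride and inhibiting the potassium-driven exporters, which sets cell volume and intracellular chloride. Much of this control is by phosphorylation and is not visible in RNA, and the RNA of a short treatment is known to show most readily in immediate early transcription factors and in the feedback inhibitors of kinases, which are made and lost quickly.

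Counts assigned to genes ranged from 18013790 to 24002291 per library, and 3 counts corresponded to 0.128 to 0.165 CPM (counts scaled to library size with TMM factors). Between log2 CPM of replicates Pearson's r was 0.985 for DMSO and 0.984 at 2 h, over genes, while it was 0.974 to 0.976 across the groups. The 2 DMSO libraries differed more from each other than the 2 treated ones did: of 7424 genes of at least 20 CPM, 59 differed by over 0.5 on the log2 scale between the DMSO replicates and 5 between the 2 h replicates. Of 12 plasma cell markers 11 passed the count minimum, with a summed level of 2494 and 2568 CPM in DMSO and 2433 and 2479 CPM at 2 h. None of 7 fibroblast markers reached the count minimum, and the summed markers of mature B cells, T and NK cells and myeloid cells lay at or under 8.16 CPM in every library, with CD22, FCER2, CD3D, CD3G, CD68, MPO, COL3A1 and LUM at 0 counts throughout. Of 7 epithelial markers 5 were tested and 3 rose, CLDN4 among them, with a sum of 103.2 and 103.1 CPM in DMSO and 134 and 137 CPM at 2 h, of which EPCAM gave 91.7 and 89.5 CPM in DMSO and 107 and 115 CPM at 2 h. Of 5 endothelial markers only PECAM1 was tested, and it rose from 2.81 and 1.36 to 3.7 and 4.98 CPM, with CDH5, TEK and VWF at 0. The call of PECAM1 was lost without DMSO replicate 2 or the second 2 h library, and that of EPCAM without the latter. Of 5 erythroid markers only HBA1 was tested, through the treated libraries alone, at 0.11 and 0.141 CPM in DMSO and 0.763 and 0.723 CPM at 2 h and not called, with HBB at 0. The part of these marker levels in the results was not tested. In these bulk libraries fewer cells of a type and less RNA per cell cannot be told apart.

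WNK463 was followed within 2 h by changes in both directions over a large part of the transcriptome. Of 15187 genes tested, 2639 (17.4%) passed an adjusted p of 0.05 (quasi-likelihood test of edgeR, with Benjamini-Hochberg adjustment over all genes) and are termed called, 1353 higher (8.91%) and 1286 lower (8.47%), and the median log2 change of all genes was -0.01. Most changes were small. Of the genes called higher, 722 differed by under 0.5 on the log2 scale, 392 by 0.5 to 1, 171 by 1 to 2 and 68 by 2 or more, and of those called lower 657, 449, 140 and 40. A log2 change of at least 1 in size was reached by 419 called genes (2.76%), 239 higher (1.57%) and 180 lower (1.19%). Many of these were low genes: their median level was 3.02 CPM for the higher and 3.10 CPM for the lower, against 18.9 CPM over all tested genes. In 1351 of the 1353 genes called higher and 1282 of the 1286 called lower the groups did not overlap, while over all tested genes 4161 (27.4%) had both 2 h libraries above both DMSO libraries and 4186 (27.6%) had both below. Scaling by library size alone shifted the median of all genes to -0.04 and gave 1120 genes higher and 1567 lower. More genes were also lower than higher with the 4 libraries alone (1119 higher, 1145 lower) and with a minimum of 30 counts (1374 and 1425), so which direction was the more frequent depended on these settings. Without the first 2 h library 1744 genes were called, and without the second 1445.

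**Figure D1:**
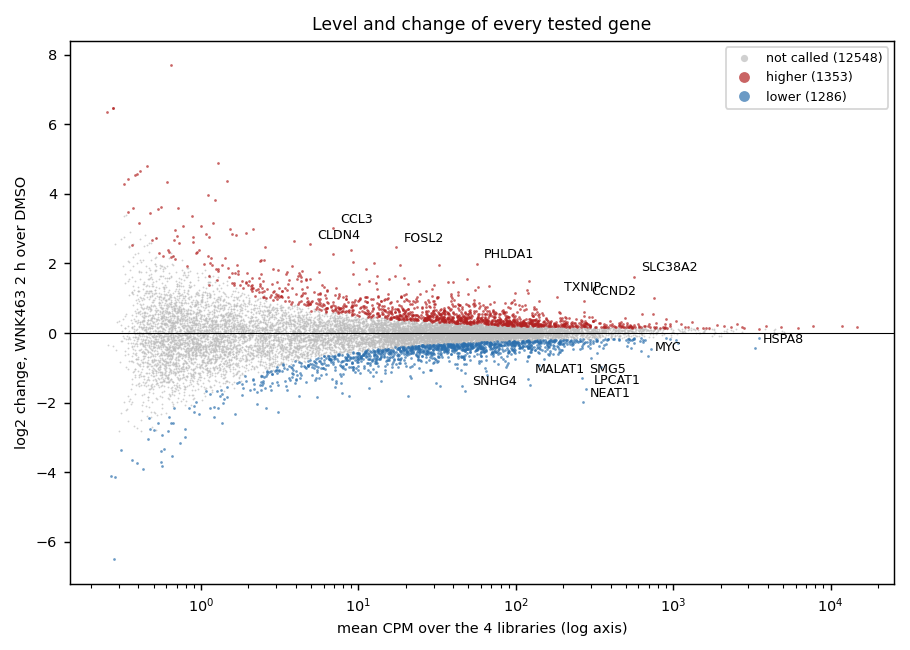
Mean CPM over the 4 libraries (log axis) against the log2 change of WNK463 2 h over DMSO for each of the 15187 tested genes; red points are the 1353 called higher, blue points the 1286 called lower and grey points the rest. Named genes such as SLC38A2 and NEAT1 lie far from 0 at high levels. Low genes scatter widely, some called and some not.

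The genes with the largest rises, among called genes of at least 4 CPM, included a chemokine, a claudin, a pseudogene and several regulators of transcription and signalling. CCL3, which encodes the chemokine MIP-1 alpha that myeloma cells are known to secrete, stood at 2.15 and 0.94 CPM in the DMSO libraries and 13.8 and 10.7 CPM at 2 h (log2 change 3.01 ± 0.267 SE, adjusted p = 7.35e-12). Both treated libraries were far above both DMSO libraries, but its level is uncertain, because the antisense CCL3-AS1 overlaps 74.6% of its exons, reads were counted on both strands together, and near-identical copies exist. CLDN4, a tight-junction claudin, rose 5.9-fold, from 1.38 and 1.46 to 8.93 and 7.91 CPM. PHLDA1, a gene induced by growth-factor signalling, rose from 23.2 and 22 to 90.9 and 89.6 CPM (log2 change 2.00 ± 0.0966 SE, adjusted p = 1.83e-20), with replicates that nearly coincided in each group. The transcriptional repressor MXD1, a partner of MAX that competes with MYC, rose 3.89-fold, from 13 and 13.4 to 51.7 and 51.4 CPM. FRAT1, a binding partner of GSK3 in WNT signalling, rose 4-fold, and HSD3BP5, a pseudogene, 3.44-fold.

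Among the genes with the smallest adjusted p-values was SLC38A2, a sodium-coupled transporter of small neutral amino acids that cells use to regain volume in hypertonic medium. It stood at 267 and 285 CPM in the DMSO libraries and 839 and 858 CPM at 2 h and rose 3.07-fold (log2 change 1.62 ± 0.0569 SE, adjusted p = 9.32e-26). RGS1, an inhibitor of G-protein signalling downstream of chemokine receptors, rose from 62.3 and 64.6 to 182 and 176 CPM, a rise of 2.82-fold. For both genes the groups were well apart and the replicates close together.

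Of the same kind of genes the deepest fall was that of NEAT1, the noncoding RNA on which nuclear paraspeckles are built, from 448 and 401 to 110 and 103 CPM (log2 change -1.99 ± 0.0674 SE, adjusted p = 3.72e-26; chr11:65422774-65445540 on hg38). LPCAT1, an acyltransferase that remodels lysophosphatidylcholine, stood at 427 and 418 CPM in the DMSO libraries and 133 and 142 CPM at 2 h (log2 change -1.62 ± 0.0639 SE, adjusted p = 6.96e-24; chr5:1456480-1523962). SMG5, a factor of nonsense-mediated decay, fell from 389 and 362 to 152 and 153 CPM, and RBM12, an RNA-binding protein gene, from 174 and 189.7 to 62.1 and 65.8 CPM, by 1.30 and 1.51 on the log2 scale. In each of these the level at 2 h was below that in either DMSO library by more than the replicates differed. MAT2A, which makes the methyl donor S-adenosylmethionine, fell from 461 and 458 to 237 and 234 CPM (adjusted p = 8.91e-17). MED22, a subunit of the Mediator complex, fell by 1.51 and GATD1 by 1.54 on the log2 scale. SERHL2 and ZNF785 fell by 1.80 and 1.73, but share 41.4% and 27.1% of their exonic length with antisense genes, RRP7BP for SERHL2. The long noncoding genes ENSG00000268362 and ENSG00000278058, which have no symbol, fell by 1.85 and 1.57.

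**Figure D2:**
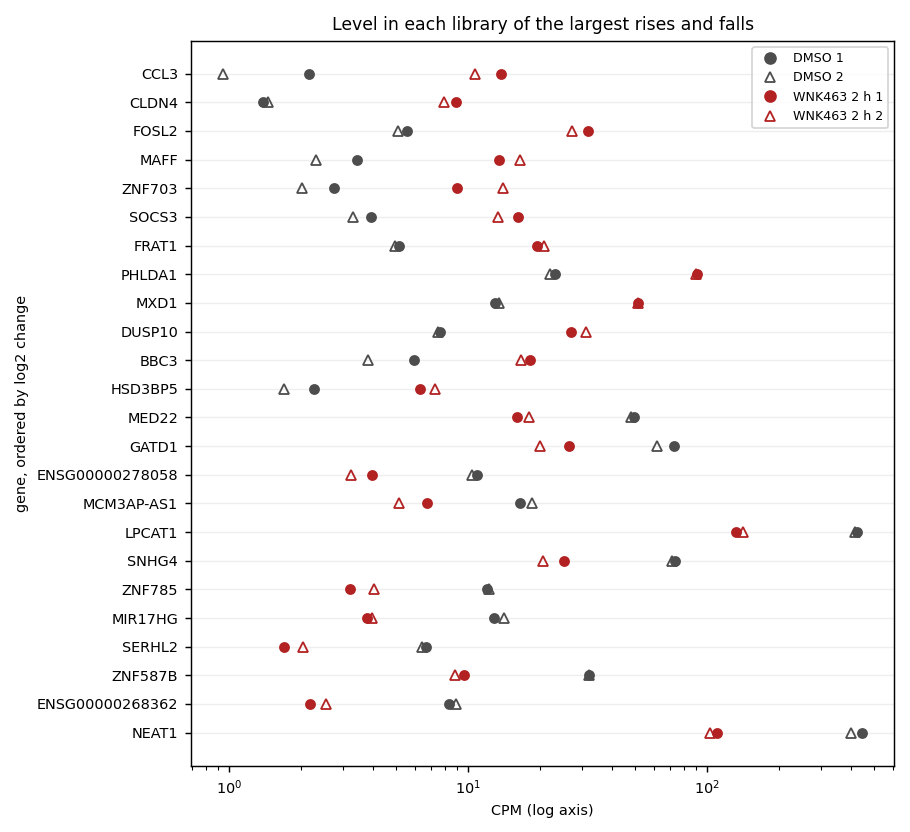
CPM on a log axis in each of the 4 libraries (grey DMSO, red WNK463 2 h; circles replicate 1, triangles replicate 2) for the 12 largest rises and 12 largest falls, ordered by log2 change. In all 24 genes both treated libraries lie on one side of both DMSO libraries, a condition of their choice.

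AP-1 is a dimer of FOS and JUN family proteins, and the CREB/ATF, C/EBP and small MAF proteins are related basic leucine-zipper factors. Of 25 tested genes of this group 13 rose, 2 fell and 10 were not called, with a median log2 change of 0.36. FOSL2, a FOS-family subunit, stood at 5.57 and 5.07 CPM in the DMSO libraries and 31.9 and 27.2 CPM at 2 h (log2 change 2.47 ± 0.163 SE, adjusted p = 7.52e-16; chr2:28392448-28417317 on hg38). MAFF, a small MAF protein without a transactivation domain, stood at 3.42 and 2.3 CPM in the DMSO libraries and 13.5 and 16.4 CPM at 2 h (log2 change 2.40 ± 0.224 SE, adjusted p = 3.05e-11). Both genes were low in DMSO and separate from it at 2 h. The JUN family rose as a whole: JUND from 80.8 and 71.8 to 132 and 133 CPM, JUNB from 40.8 and 36.1 to 72.6 and 65.2 CPM and JUN from 36.3 and 27.4 to 57.9 and 52.9 CPM, changes of 0.79, 0.84 and 0.80. FOS itself, the best-known immediate early gene, was at 4.36 and 3.24 CPM in the DMSO libraries and 6.97 and 6.89 CPM at 2 h (adjusted p = 0.0219), and it was not called when DMSO replicate 2 or either 2 h library was left out or with DESeq2. CEBPG, a C/EBP protein that pairs with ATF4, rose 1.45-fold. BATF, which pairs with JUN proteins in lymphocytes, fell from 17.5 and 19.6 to 13.1 and 11.7 CPM, and NFIL3, a bZIP repressor, from 70.4 and 81.3 to 60.5 and 63.8 CPM. The call of BATF was lost without DMSO replicate 2 or the second 2 h library, and that of NFIL3 also without the first. Without the second 2 h library 8 of the 25 genes rose.

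Promoter sequences were looked up for the early factors, because binding sites for CREB and for AP-1 itself are textbook elements of such genes. They were taken from RefSeq (GRCh38.p14), run 5′ to 3′ on the gene's strand, and carry the matched motif in capitals. The MAFF window (chr22:38201895-38201992, plus strand) holds the cyclic AMP response element TGACGTCA, starting at position -54 from the start site, and the FOSL2 window (chr2:28392817-28392868, plus strand) the AP-1 motif TGANTCA, starting at position 4.
MAFF: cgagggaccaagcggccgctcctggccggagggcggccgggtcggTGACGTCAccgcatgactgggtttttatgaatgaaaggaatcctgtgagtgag
FOSL2: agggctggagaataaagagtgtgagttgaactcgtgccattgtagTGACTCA
Both motifs were searched on both strands in 300 bases, from 250 before to 50 after the start, and no stretch of letters can match both. Promoters were matched for 10683 of the 15187 tested genes. TGACGTCA occurred in 3.29% of these, in 3.80% of 1054 genes called higher and in 4.46% of 942 called lower. TGANTCA occurred in 4.47%, 4.55% and 3.40%. In the table as a whole, 27305 promoters, the shares were 1.98% and 7.76%. Of the 20 matched genes of the AP-1 group 2 held each motif. A match is a description of letters, not a binding site.

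Immediate early genes of other families also rose more often than they fell. Of 38 tested zinc-finger, nuclear-receptor, IER, BTG and related early genes 18 rose and 2 fell, with a median of 0.45. However, 1 of the 18, EGR3, reached the count minimum only at 2 h. Of the other 37 genes 17 rose and 2 fell, with a median of 0.42. PLK3, a stress-responsive polo-like kinase, stood at 32 and 33.9 CPM in the DMSO libraries and 83.2 and 81 CPM at 2 h (log2 change 1.32 ± 0.0964 SE, adjusted p = 1.87e-14). BTG1, an antiproliferative gene often mutated in B-cell lymphoma, stood at 34.7 and 31.1 CPM in the DMSO libraries and 76.8 and 78.1 CPM at 2 h and rose 2.35-fold. Neither gene's groups overlapped. The Krüppel-like factors KLF11 and KLF9 rose from 14.6 and 18.9 to 43 and 44.3 CPM and from 16.9 and 15.6 to 35.7 and 39 CPM. CSRNP2, a nuclear protein gene, rose 2.42-fold, and ZFP36L1, which destabilises AU-rich mRNAs, 1.82-fold. EGR1, the classic serum response gene, stood at 5.85 and 6.39 CPM in the DMSO libraries and 16.5 and 18 CPM at 2 h (log2 change 1.49 ± 0.183 SE, adjusted p = 3.18e-08). Its treated libraries were close to each other and apart from DMSO. Against the majority, BTG2 fell from 123 and 107 to 77.9 and 83.7 CPM and TOB2, of the same antiproliferative family, from 113 and 99.7 to 81.9 and 91.3 CPM. The call of TOB2 was lost without DMSO replicate 1 or without the first 2 h library.

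The EGR1 promoter (chr5:138465329-138465450, plus strand) is shown because 2 CArG boxes, the binding motif of serum response factor, stand close together in it, in capitals, the first at position -105.
EGR1: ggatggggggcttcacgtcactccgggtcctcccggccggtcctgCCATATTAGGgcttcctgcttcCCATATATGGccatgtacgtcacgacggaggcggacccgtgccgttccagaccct
CArG boxes were found in 1.08% of tested promoters, 1.04% of those of genes called higher and 1.17% of those of genes called lower. EGR1 was the only called gene of 16 matched in the early list that held one.

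Feedback inhibitors of kinase signalling moved mostly upward. Of 24 tested, 16 rose and 1 fell, with a median log2 change of 0.63. However, 1 of the 16, DUSP8, reached the count minimum only at 2 h. Of the other 23 genes 15 rose and 1 fell, with a median of 0.59. Among the dual-specificity phosphatases, which remove the activating phosphates of MAP kinases, DUSP10, selective for JNK and p38, stood at 7.61 and 7.47 CPM in the DMSO libraries and 27.1 and 31.1 CPM at 2 h (log2 change 1.95 ± 0.148 SE, adjusted p = 5.98e-14). DUSP4, a nuclear phosphatase induced by ERK, stood at 52.7 and 49.3 CPM in the DMSO libraries and 90.5 and 96.7 CPM at 2 h and DUSP1, a stress-induced one, at 12.4 and 12.5 CPM in the DMSO libraries and 24.9 and 27.9 CPM at 2 h, rises of 1.84-fold and 2.12-fold. In all 3 the treated libraries lay above DMSO with no overlap. DUSP5, a nuclear phosphatase specific for ERK, rose from 71.9 and 63.2 to 99.7 and 104 CPM. TRIB1, a pseudokinase that brings ligases to C/EBP proteins, rose 1.67-fold. DUSP2 fell, from 27.1 and 22.6 to 17.6 and 16.8 CPM, a call lost without DMSO replicate 1 or the second 2 h library. The DUSP1 promoter (chr5:172771268-172771365, minus strand) is shown because it holds the same 8-letter cyclic AMP response element as MAFF, in capitals, at position -125.
DUSP1: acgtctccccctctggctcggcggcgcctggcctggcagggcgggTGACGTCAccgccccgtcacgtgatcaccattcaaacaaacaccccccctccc
Of 18 matched genes of this list 3 held it, 2 of them among the 13 matched that were called. These 2 were DUSP1 and DUSP8, of which DUSP8 reached the count minimum only at 2 h.

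A list of G-protein signalling genes, which holds receptors and phosphodiesterases beside RGS genes, showed rises and no falls: 9 of 26 tested rose, with a median of 0.13. Beside RGS1, the chemokine receptors CCR1 and CCR2 rose from 106 and 108 to 157 and 157 CPM and from 12.7 and 10.1 to 20.5 and 21.3 CPM. The cyclic AMP phosphodiesterases PDE4D and PDE4B rose from 38 and 41.1 to 61 and 64.4 CPM and from 10.3 and 9.59 to 17.9 and 21.1 CPM. GPR132, a receptor for lysophospholipids and lactate, stood at 0.552 and 0.282 CPM in the DMSO libraries and 3.49 and 2.38 CPM at 2 h, close to the count minimum in DMSO.

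**Figure D3:**
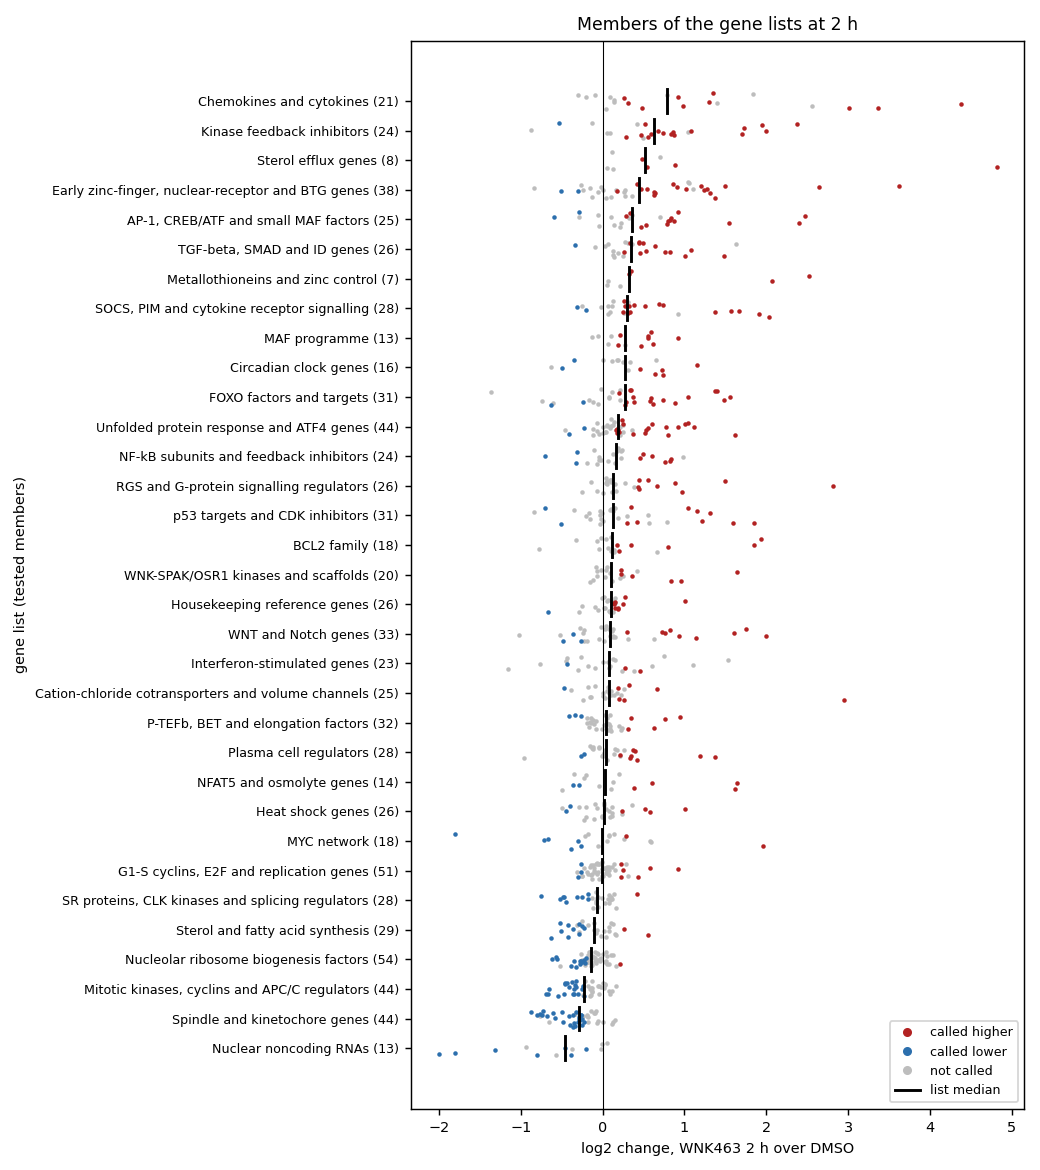
Log2 change of WNK463 2 h over DMSO for the tested members of 33 gene lists, ordered by list median (black bar); red and blue points are called higher and lower and grey points are not called. Chemokines, kinase feedback inhibitors and early genes lie to the right of 0 with tails of large rises, and spindle, mitotic and nuclear noncoding genes to the left.

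Of 21 tested chemokines and cytokines 10 rose and none fell, with a median of 0.79. Of these 21, 4 reached the count minimum only in the treated libraries and so could hardly do other than differ upward, CCL3L3 and CXCL10 among the called. Of the remaining 17 members 8 rose, with a median of 0.31, and over all 21 the median was 0.53 without DMSO replicate 2. IL10, an anti-inflammatory cytokine and a growth factor of plasma cells, stood at 36 and 40.3 CPM in the DMSO libraries and 104 and 90.7 CPM at 2 h (log2 change 1.35 ± 0.0902 SE, adjusted p = 9.32e-16). CXCL8, the neutrophil chemokine interleukin 8, stood at 3.53 and 4.75 CPM in the DMSO libraries and 10.5 and 9.95 CPM at 2 h, and TNFSF9, the ligand of 4-1BB, at 8.22 and 7.89 CPM in the DMSO libraries and 14.7 and 17.1 CPM at 2 h. All 3 were separate between the groups. HGF, which JJN3 makes in quantity and which acts through MET, rose 1.24-fold, from 1121 and 1216 to 1446 and 1453 CPM.

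Suppressors and effectors of cytokine signalling rose in the same libraries: 16 of 28 tested rose and 2 fell, with a median of 0.30. SOCS3, the feedback inhibitor of gp130 and STAT3, stood at 3.92 and 3.29 CPM in the DMSO libraries and 16.1 and 13.4 CPM at 2 h (log2 change 2.03 ± 0.214 SE, adjusted p = 6.95e-10). CISH and SOCS2, feedback inhibitors of STAT5, rose from 1.76 and 1.41 to 4.96 and 6.98 CPM and from 18.2 and 16.9 to 29.1 and 29.5 CPM, and SOCS1 from 2.65 and 1.46 to 7.68 and 5.32 CPM. The receptor subunit IL10RB rose 2.96-fold, and PIM3, a survival kinase, 1.61-fold, whereas PIM2 fell by 0.20 and SOCS4 by 0.31 on the log2 scale. Neither fall was called with either 2 h library left out, nor that of SOCS4 without DMSO replicate 2. Without the second 2 h library 10 of the 28 rose.

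Genes of NF-kB signalling moved in both directions. Of 24 tested, 6 rose and 3 fell, with a median of 0.16. BIRC3, an inhibitor of apoptosis and NF-kB target, stood at 212 and 234 CPM in the DMSO libraries and 302 and 329 CPM at 2 h (log2 change 0.50 ± 0.0644 SE, adjusted p = 9.53e-08). TRAF1, an adaptor, rose 1.77-fold, BCL3, a nuclear cofactor, 1.52-fold and the adhesion molecule ICAM1 1.7-fold, although 25.4% of the exonic length of ICAM1 is shared with ICAM4-AS1. MAP3K14, the kinase NIK that drives the noncanonical branch, fell from 54.7 and 55.8 to 33 and 34.8 CPM (log2 change -0.70 ± 0.105 SE, adjusted p = 2.17e-06), and TRAF3, which marks NIK for degradation, from 220.4 and 223 to 173 and 181 CPM. The promoter of BIRC3 (chr11:102317240-102317403, plus strand), chosen after values were seen, is printed because it holds 2 matches to the kappa-B motif, in capitals, the first at position -199.
BIRC3: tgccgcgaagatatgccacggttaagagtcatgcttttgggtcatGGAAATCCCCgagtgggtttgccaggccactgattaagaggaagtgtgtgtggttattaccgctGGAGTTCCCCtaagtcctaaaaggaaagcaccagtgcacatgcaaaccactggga
Kappa-B motifs were present in 9 of 22 matched promoters of this list and in 5 of the 9 called, BIRC3, BCL3, TRAF3, NFKBIA and MAP3K8. They were present in 6.41% of all tested promoters, 8.92% of those of genes called higher and 5.52% of those of genes called lower.

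The kinases that WNK463 targets changed little in RNA. Of 20 tested genes for WNK kinases, OSR1, SPAK and their scaffolds 6 rose and none fell, with a median of 0.11, and without the second 2 h library 3 rose. WNK1 stood at 273 and 267 CPM in the DMSO libraries and 310.3 and 319 CPM at 2 h (log2 change 0.22 ± 0.0597 SE, adjusted p = 0.00689), and this call was lost without the second 2 h library. WNK2 was at 17.8 and 15.1 CPM in the DMSO libraries and 17.2 and 14.2 CPM at 2 h and not called (adjusted p = 0.828). WNK3, with 4 counts in each DMSO library and 1 at 2 h in each, and WNK4, with 2 counts in 1 treated library and 0 elsewhere, fell short of the minimum. OXSR1 was at 129.6 and 137 CPM in the DMSO libraries and 126 and 129 CPM at 2 h and STK39 at 56.4 and 68.4 CPM in the DMSO libraries and 71 and 73.6 CPM at 2 h, neither called (adjusted p = 0.603 and 0.105). The members that rose clearly were SGK1, an aldosterone- and volume-responsive kinase, at 7.28 and 5.45 CPM in the DMSO libraries and 19 and 20.7 CPM at 2 h (log2 change 1.65 ± 0.184 SE, adjusted p = 3.17e-09), and the TSC22-domain genes TSC22D2 and TSC22D1, from 28.7 and 32.5 to 52.4 and 57.3 CPM and from 21.4 and 16.2 to 33.9 and 38.5 CPM. TSC22-domain proteins are known to associate with the WNK pathway through the adaptor NRBP1.

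Of 25 cation-chloride cotransporters, volume channel subunits and related genes 6 rose and 1 fell, with a median of 0.08. However, 1 of the 6, ATP1B1, reached the count minimum only at 2 h, and of the other 24 genes 5 rose and 1 fell. SLC12A7, the potassium-chloride exporter KCC4, fell from 211 and 199 to 147 and 148 CPM (log2 change -0.47 ± 0.068 SE, adjusted p = 1.07e-06). SLC12A2, the importer NKCC1, stood at 59.1 and 57.8 CPM in the DMSO libraries and 66 and 74.1 CPM at 2 h (adjusted p = 0.0358), a call that was lost with library size alone, with the 4 libraries only, with a minimum of 1 count, and without DMSO replicate 2 or the second 2 h library. LRRC8C, a subunit of the volume-regulated anion channel, rose from 85.5 and 89.3 to 136 and 142 CPM (log2 change 0.67 ± 0.0744 SE, adjusted p = 2.74e-09), and LRRC8A, its obligate subunit, 1.25-fold, a call lost without the first 2 h library. With either 2 h library left out 3 genes of this list rose.

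NFAT5 is the transcription factor of the response to hypertonic stress. It rose 1.52-fold, from 57.7 and 56 to 84.9 and 87.4 CPM (log2 change 0.60 ± 0.0861 SE, adjusted p = 9.23e-07). Of 14 tested genes of this group 4 rose and 2 fell, with a median of 0.03. The taurine transporter SLC6A6 rose from 288 and 261 to 363 and 353 CPM, while SLC5A3, the myo-inositol transporter, fell from 162 and 172 to 135 and 138 CPM, a call lost without the first 2 h library, and the helicase DDX5 fell by 0.36 on the log2 scale. Both osmolyte transporters named are known NFAT5 targets, and they moved in opposite directions. The largest log2 change of the group was 1.65, that of SGK1, described above.

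Of 31 tested FOXO genes and targets 17 rose and 2 fell, with a median of 0.27, and without the first 2 h library 11 rose. TXNIP, an arrestin that blocks glucose uptake and thioredoxin, stood at 118 and 121 CPM in the DMSO libraries and 253 and 238 CPM at 2 h (log2 change 1.04 ± 0.0656 SE, adjusted p = 1.59e-16). KLHL24, a ubiquitin ligase adaptor, stood at 19.9 and 22 CPM in the DMSO libraries and 59.6 and 57.2 CPM at 2 h and CCNG2, an atypical cyclin that restrains proliferation, at 10.5 and 12.1 CPM in the DMSO libraries and 29.4 and 30.3 CPM at 2 h. The groups were apart in each. FBXO32, the ligase atrogin-1, rose 2.96-fold, FOXO1 itself 1.5-fold and CITED2 1.5-fold. GABARAPL1, an autophagy gene, fell against this trend, from 36.3 and 35.1 to 25 and 21.3 CPM.

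Of 31 tested p53 targets and CDK inhibitors 9 rose and 2 fell, with a median of 0.13. CDKN1A, the inhibitor p21, stood at 77.9 and 71.1 CPM in the DMSO libraries and 166 and 166 CPM at 2 h (log2 change 1.16 ± 0.0744 SE, adjusted p = 3.16e-16), and CDKN1C, the inhibitor p57, at 10.1 and 9.26 CPM in the DMSO libraries and 26 and 32.3 CPM at 2 h, a rise of 3.02-fold. The 2 fallers were AEN, a p53-induced exonuclease, from 62.8 and 53.2 to 38.3 and 33.3 CPM, and BTG2, a p53 target named above. Of 18 genes of the BCL2 family 6 rose and none fell. The killer proteins BBC3 (PUMA) and BMF rose from 5.96 and 3.81 to 18.2 and 16.7 CPM and from 37.5 and 35.1 to 64.6 and 61.5 CPM, and the protective BCL2 rose too, from 162 and 174 to 213 and 214 CPM (adjusted p = 1.56e-04).

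Cyclin D2, the D-type cyclin of MAF-positive myeloma, was among the genes that rose. CCND2 stood at 185 and 191 CPM in the DMSO libraries and 359 and 355 CPM at 2 h (log2 change 0.93 ± 0.0628 SE, adjusted p = 1.46e-15). Of 51 tested G1-S cyclins, E2F and replication genes 6 rose (11.8%) and 3 fell (5.88%), against 8.91% and 8.47% over all genes. Their median was -0.01, the same as over all genes. E2F7, a repressor of the family, rose from 54.9 and 64.7 to 88.2 and 90.6 CPM and CDK6 from 609 and 670.3 to 731 and 787 CPM. The call of CDK6 was lost without the second 2 h library. With library size alone as scaling 5 of this list rose and 7 fell, and with a minimum of 30 counts 5 fell. Without the first 2 h library 3 rose and none fell, without the second 4 rose and none fell, and without DMSO replicate 1, 6 fell.

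Mitotic genes showed the most one-sided decrease among protein-coding lists. Of 44 tested spindle and kinetochore genes 26 fell and none rose, with a median of -0.28, and of 44 tested mitotic kinases, cyclins and regulators of the anaphase-promoting complex 20 fell and none rose, with a median of -0.22. With either 2 h library left out 17 of the 44 spindle genes fell. ASPM, which focuses spindle poles, stood at 138 and 159 CPM in the DMSO libraries and 85.3 and 85.5 CPM at 2 h (log2 change -0.80 ± 0.0766 SE, adjusted p = 5.98e-11). The kinetochore gene NDC80 stood at 141 and 152 CPM in the DMSO libraries and 85.7 and 97.1 CPM at 2 h, and SGO2, a protector of centromeric cohesion, at 56.1 and 68.6 CPM in the DMSO libraries and 31.6 and 36.1 CPM at 2 h (log2 change -0.88). Each of these was lower in both treated libraries than in either DMSO library. The kinesin genes KIF20B and KIFC1 fell from 94.2 and 113 to 61.7 and 62.9 CPM and from 104 and 86.2 to 65 and 62.2 CPM. Among the mitotic kinases, AURKA fell from 78.8 and 80 to 51.2 and 49.3 CPM. CDCA8, the borealin subunit of the chromosomal passenger complex, fell from 98.2 and 99.5 to 59.5 and 63.3 CPM (log2 change -0.69 ± 0.0825 SE, adjusted p = 1.97e-08). The activator of the anaphase-promoting complex CDC20 fell from 221 and 213 to 162 and 155 CPM, and the proliferation marker MKI67 from 625 and 622 to 458 and 465 CPM. The falls were below 1 on the log2 scale in every called member of both lists.

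Promoters of mitotic genes are known for the cell cycle genes homology region, with the core TTTGAA, and for CCAAT boxes. Those of ASPM (chr1:197146732-197146827, minus strand) and CDCA8 (chr1:37692448-37692515, plus strand) are shown, chosen after values were seen as the called holders with the smallest adjusted p in each list. The core is in capitals, reading TTCAAA on the printed strand of ASPM, at positions -113 and -23 from the start site.
ASPM: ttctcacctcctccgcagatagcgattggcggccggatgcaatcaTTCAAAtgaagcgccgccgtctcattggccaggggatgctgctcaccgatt
CDCA8: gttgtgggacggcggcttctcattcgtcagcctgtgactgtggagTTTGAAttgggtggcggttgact
TTTGAA was present, on either strand, in 27 of 40 matched spindle promoters (67.5%) and in 14 of the 22 of genes that fell, and in 20 of 36 matched promoters of the mitotic kinase list and 10 of the 14 of genes that fell. It was present in 10.1% of all tested promoters and in 15.4% of the 27305 in the table. CCAAT was present in 72.5% and 63.9% of the promoters of these lists, against 36.7% of all tested. Within the spindle list the share with TTTGAA was 63.6% among genes that fell, not above that of the list as a whole. In the mitotic kinase list the share was higher among genes that fell, 10 of 14, than in the whole list, 20 of 36. Over all genes the core was in 12.6% of promoters of genes called lower and 9.20% of those called higher.

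MYC fell by 0.67 on the log2 scale, from 880.2 and 819.8 to 535 and 532 CPM (adjusted p = 5.41e-13). FUBP1, a protein that binds the far upstream element of MYC, fell from 379 and 372 to 232 and 226 CPM (log2 change -0.71 ± 0.063 SE, adjusted p = 6.21e-12), and PVT1, the noncoding neighbour of MYC, from 48.9 and 50.1 to 36.1 and 39.3 CPM, a call lost without the first 2 h library. With MXD1 rising, 2 of 18 tested genes of the MYC network rose and 6 fell, and the median was -0.00. Of 54 tested nucleolar factors of ribosome biogenesis, many of them known MYC targets, 13 fell and 1 rose, with a median of -0.14. RRS1 and NOP16 fell from 102 and 84.5 to 61.4 and 60.4 CPM and from 92.3 and 79.7 to 60.7 and 56.5 CPM, URB2 from 84.1 and 85 to 56 and 58.2 CPM and NOP56, a core protein of box C/D snoRNPs, from 415 and 392 to 324 and 311 CPM. Without the first 2 h library 6 and without the second 8 of the 54 fell. Of 32 elongation factors and BET genes 5 rose (15.6%) and 3 fell (9.38%), against 8.91% and 8.47% over all genes. HEXIM1, the inhibitor of the elongation kinase P-TEFb, rose from 66.5 and 65.9 to 115 and 109 CPM (log2 change 0.76 ± 0.08 SE, adjusted p = 6.63e-10). MEPCE, its partner in the 7SK particle, rose 1.54-fold and BRD3 1.93-fold, while AFF1 fell from 135 and 140 to 108 and 98.9 CPM.

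MIR17HG, the host of the miR-17-92 cluster and a known MYC target, stood at 12.8 and 14.1 CPM in the DMSO libraries and 3.76 and 3.96 CPM at 2 h (log2 change -1.80 ± 0.217 SE, adjusted p = 2.00e-08; chr13:91347820-91354579 on hg38). The treated libraries were low and close together. The host carries 6 hairpins, and mature microRNAs were not measured in these libraries, so the sequences (RefSeq, GRCh38.p14) are shown only to say which products this host gives. Seeds (bases 2 to 8) are in capitals. miR-17-5p and miR-20a-5p share 1 seed, miR-19a-3p and miR-19b-3p another, and miR-18a-5p and miR-92a-3p have seeds of their own.
hsa-miR-17-5p: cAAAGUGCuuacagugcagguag
hsa-miR-20a-5p: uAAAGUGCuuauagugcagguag
hsa-miR-18a-5p: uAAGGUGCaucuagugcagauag
hsa-miR-19a-3p: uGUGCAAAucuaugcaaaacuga
hsa-miR-19b-3p: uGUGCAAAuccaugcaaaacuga
hsa-miR-92a-3p: uAUUGCACuugucccggccugu
Of 20 tested microRNA host genes 5 fell and none rose, with a median of -0.29. MIR34AHG, the host of a p53-induced microRNA, fell from 12.5 and 11.5 to 5.83 and 6.3 CPM. With DMSO replicate 1 or either 2 h library left out 3 of the 20 fell, and without DMSO replicate 2 the median was -0.48.

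Of 13 tested nuclear noncoding RNAs 7 fell and none rose, with a median of -0.46. MALAT1, the abundant RNA of nuclear speckles, stood at 191 and 149 CPM in the DMSO libraries and 70.5 and 66 CPM at 2 h (log2 change -1.32 ± 0.089 SE, adjusted p = 1.39e-15). Its groups were apart, with more spread between the DMSO libraries than between the treated ones. TUG1 fell from 157 and 171 to 116 and 123 CPM, and FTX, a gene of the X-inactivation centre that shares 34.1% of its exonic length with JPX, from 16.1 and 17.1 to 9.04 and 9.91 CPM. Of 27 tested snoRNA host genes 13 fell and none rose, with a median of -0.40, which was -0.24 without the second 2 h library. SNHG4 stood at 73.5 and 71.3 CPM in the DMSO libraries and 25.2 and 20.7 CPM at 2 h (log2 change -1.66 ± 0.112 SE, adjusted p = 1.39e-15), SNHG3 at 113 and 117 CPM in the DMSO libraries and 61.6 and 56.3 CPM at 2 h and SNHG26 at 42.7 and 47.8 CPM in the DMSO libraries and 15.8 and 17.3 CPM at 2 h. The treated level was below DMSO in all 3. SNHG1 fell from 228 and 219 to 151 and 154 CPM, and SNHG7 and SNHG16 by 0.89 and 0.54, although they share 30.3% and 30.6% of their exonic length with antisense genes.

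Splicing regulators fell more often than they rose. Of 28 tested SR proteins, CLK kinases and related genes 9 fell and 1 rose, with a median of -0.07. SRSF5 fell from 126 and 123 to 77.1 and 70.1 CPM (log2 change -0.75 ± 0.0814 SE, adjusted p = 1.35e-09), SRRM2, a scaffold of nuclear speckles, from 848 and 823 to 609.9 and 613 CPM and LUC7L3, a U1-associated factor, from 175 and 194 to 131 and 135 CPM. CLK4, a kinase of SR proteins, rose from 26.8 and 28.5 to 34.8 and 39.1 CPM, a call lost without the second 2 h library.

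The zinc-finger genes of the ZNF family, many of which encode KRAB repressors in clusters on chromosome 19, fell more often than they rose. Of 199 tested on chromosome 19, 53 fell and 7 rose, with a median of -0.33. Of 213 on other chromosomes 38 fell and 21 rose, with a median of -0.06. Among the rises, 1 on chromosome 19 and 2 elsewhere were of genes that reached the count minimum only at 2 h. Both 2 h libraries lay below both DMSO libraries in 113 of the 199 and above in 21. ZNF587B stood at 32 and 32 CPM in the DMSO libraries and 9.59 and 8.8 CPM at 2 h (log2 change -1.80 ± 0.149 SE, adjusted p = 8.35e-13), and ZNF841 and ZNF780B fell from 15.4 and 17.1 to 7.95 and 7.19 CPM and from 22.1 and 22.8 to 11.9 and 12.3 CPM. Against the trend, ZNF805 rose from 8.94 and 8.93 to 17 and 14.2 CPM. On other chromosomes ZNF703, a NET-family repressor that is no KRAB gene, rose 4.85-fold, and ZNF217 rose from 114 and 122 to 177 and 178 CPM. Without the second 2 h library 33 of the 199 fell, and 24 of the 213 fell and 11 rose. Without the first, 25 of the 213 fell.

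Long noncoding genes and pseudogenes had negative medians, but both were called less often than all genes, of which 8.91% rose and 8.47% fell. Of 12106 tested protein-coding genes 10.5% rose and 8.91% fell. Of 1985 tested long noncoding genes 2.92% rose and 6.55% fell, with a median log2 change of -0.17, and of 827 pseudogenes 1.57% and 7.98%. Among genes called lower by at least 1 on the log2 scale 47.2% were protein-coding and 33.9% long noncoding, against 80.3% and 14.2% among those called higher by as much and 79.7% and 13.1% among all tested. Among antisense genes MCM3AP-AS1 fell from 16.5 and 18.6 to 6.7 and 5.15 CPM. Of 436 antisense genes tested 26 fell (5.96%) and 9 rose (2.06%), with a median of -0.15. DESeq2 called 17 of them lower, and without the second 2 h library 13 fell and 4 rose, while without DMSO replicate 2, 15 fell. Among the 26 antisense genes that fell with all libraries, 2 reached the count minimum only in the DMSO libraries. Since counting ignored strand, reads of an antisense gene and of its partner cannot be told apart. Of 24 tested replication-dependent histone genes 4 rose and none fell, with a median of 0.43, H2BC12 from 35.2 and 34.3 to 53.8 and 57.7 CPM. All 24 together summed to only 118 and 117 CPM in DMSO and 164 and 170 CPM at 2 h. With a minimum of 30 counts 15 were tested and 5 rose. Of the 24, 1 reached the count minimum only at 2 h and was not called.

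**Figure D4:**
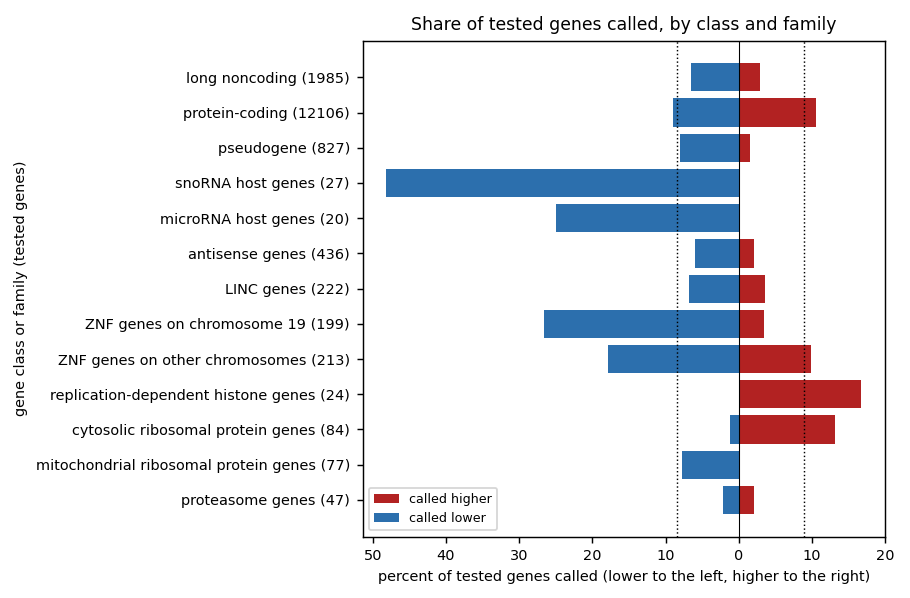
Percent of tested genes called higher (right, red) and lower (left, blue) for 3 gene classes and 10 families, with the number tested in brackets; dotted lines mark the shares over all genes, 8.91% and 8.47%. The bars to the left are longest for snoRNA hosts, chromosome 19 ZNF genes and microRNA hosts.

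Stress genes of the endoplasmic reticulum and of the ATF4 programme rose in part. Of 44 tested 19 rose and 2 fell, with a median of 0.18. HERPUD1, a factor of ER-associated degradation, stood at 78.3 and 83.3 CPM in the DMSO libraries and 136 and 140.1 CPM at 2 h (log2 change 0.77 ± 0.0761 SE, adjusted p = 1.37e-10). DNAJB9, an ER co-chaperone, stood at 20.3 and 21.7 CPM in the DMSO libraries and 42.5 and 42.2 CPM at 2 h and PPP1R15A (GADD34), which restores translation after stress, at 18.7 and 12.6 CPM in the DMSO libraries and 33.3 and 34.4 CPM at 2 h. All 3 were separate between groups, with PPP1R15A uneven in DMSO. SESN2, an inhibitor of mTORC1, rose from 25.8 and 15.6 to 41.6 and 43.2 CPM, and DDIT4, another, from 47.3 and 33.5 to 74.7 and 65.4 CPM, with 41.2% of its exonic length shared with DDIT4-AS1. ATF4 itself fell from 296 and 276 to 243 and 247 CPM (adjusted p = 0.0103), and the cystine transporter SLC7A11 from 40.6 and 43.8 to 29.8 and 33.6 CPM; the call of ATF4 was lost with either 2 h library left out, and that of SLC7A11 without the first or without DMSO replicate 2. Of 26 heat shock genes 4 rose and 2 fell, with 6 and 6 without DMSO replicate 2, 2 and 2 without the second 2 h library, and 4 and 4 with library size alone or a minimum of 30 counts. With all libraries the shares of heat shock genes called were 15.4% higher and 7.69% lower, against 8.91% and 8.47% over all genes. The collagen chaperone SERPINH1 rose from 39.5 and 36.4 to 57.4 and 56.4 CPM, while HSPA8, the constitutive HSP70, fell from 3712 and 3980.5 to 2787 and 2862 CPM (log2 change -0.45 ± 0.0447 SE, adjusted p = 2.13e-10).

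Of 29 tested genes of sterol and fatty acid synthesis 10 fell and 2 rose, with a median of -0.10. SCD, which desaturates fatty acids, fell from 341 and 333 to 255 and 250.3 CPM (log2 change -0.42 ± 0.0614 SE, adjusted p = 1.52e-06). HMGCS1 fell from 172 and 190.3 to 131 and 123 CPM, with 37.7% of its exons shared with an antisense gene. INSIG1, the sterol sensor that holds back SREBP processing, rose from 588 and 618 to 863 and 914 CPM (log2 change 0.56 ± 0.0526 SE, adjusted p = 3.77e-11). Of 8 sterol efflux genes 4 rose and none fell, but 1 of the 4, ABCG1, reached the count minimum only at 2 h, and of the other 7 genes 3 rose. Among these were ABCA1, the cholesterol exporter, from 18.7 and 18.8 to 33.9 and 35.3 CPM and the LXR receptor NR1H2 1.46-fold, with 22.1% of its exonic length shared with NAPSA. Without the first 2 h library 5 and without the second 4 of the 29 synthesis genes fell. Of 7 metallothioneins and zinc-control genes 4 rose, of which MT1G reached the minimum only at 2 h, with MT2A at 0.717 and 1.08 CPM in the DMSO libraries and 4.36 and 3.36 CPM at 2 h and the zinc exporter SLC30A1 from 104 and 115 to 136 and 141 CPM. Without DMSO replicate 1 or the first 2 h library 2 of the 7 rose.

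Plasma cell identity genes moved in both directions. Of 28 tested plasma cell regulators 8 rose and 2 fell, with a median log2 change of 0.04 and a range of -0.96 to 1.38. The regulators named here moved by small amounts, which does not hold for all members. IKZF3, the lymphoid factor Aiolos and a target of lenalidomide, rose from 770.3 and 778 to 995 and 1036 CPM (log2 change 0.39 ± 0.0505 SE, adjusted p = 9.91e-08), and PRDM1 (BLIMP-1), the master regulator of plasma cells, from 267 and 283 to 341 and 353 CPM. IRF4, on which myeloma cells depend, fell from 684 and 713 to 573 and 589 CPM (adjusted p = 2.99e-04), and the B-cell coactivator POU2AF1 from 665 and 659 to 561 and 567 CPM, a call lost with either 2 h library left out. XBP1, the factor of secretory capacity, was at 246 and 265 CPM in the DMSO libraries and 234 and 239 CPM at 2 h and not called. Of 13 tested genes of the MAF programme of myeloma 8 rose and none fell, with a median of 0.28. MAF itself stood at 568 and 563 CPM in the DMSO libraries and 646 and 645 CPM at 2 h (adjusted p = 0.00996), a call lost with either 2 h library left out, and NUAK1, a kinase of the AMPK family, rose from 114 and 101 to 170.3 and 159 CPM. Without the second 2 h library 5 of the 13 rose, and without the first the median was 0.55.

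Developmental signalling genes rose more often than they fell. Of 26 TGF-beta, SMAD and ID genes 13 rose and 1 fell, with a median of 0.35. SMAD7, the inhibitory SMAD, stood at 20.5 and 17.1 CPM in the DMSO libraries and 39.5 and 39.7 CPM at 2 h (log2 change 1.08 ± 0.126 SE, adjusted p = 1.02e-08), and ID2 and the receptor genes TGFBR1 and ACVR1 rose from 42.5 and 41.8 to 65.6 and 65.8 CPM, from 17.3 and 20.4 to 31.5 and 32.4 CPM and from 12.7 and 13.5 to 24 and 22.5 CPM. Of 33 WNT and Notch genes 9 rose and 3 fell, with a median of 0.09. FZD8, a WNT receptor, rose from 3.53 and 1.69 to 7.68 and 9.66 CPM, and HEY1, a Notch target, from 6.56 and 6.53 to 12.6 and 12.5 CPM, while PYGO2, a cofactor of beta-catenin, fell from 177 and 166 to 132 and 113 CPM. Of 16 clock genes 5 rose and 2 fell, with BHLHE40 (DEC1) from 65.4 and 56.1 to 137 and 133 CPM (log2 change 1.16 ± 0.0824 SE, adjusted p = 7.06e-15) and PER1 from 17 and 17.1 to 28.5 and 27.9 CPM. For each list described as having no member called in one direction, edgeR at an unadjusted p under 0.05, DESeq2 and limma voom also gave 0 in that direction, except for 1 spindle gene and 1 mitochondrial ribosomal protein gene higher at the unadjusted p, against 4444 genes at that p over the whole table. Without DMSO replicate 2, 1 gene each of the spindle, mitotic kinase and G-protein lists was called in that direction. In 20 of the 23 lists with 1 to 3 members called against the majority, that number moved by more than 1.5 times when 1 library was left out.

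Genes at the edge of detection were counted apart, since a gene that reaches 10 counts in 1 group only must differ between the groups. Of the tested genes 241 reached the minimum in both 2 h libraries and in neither DMSO library, 51 of them called higher, and 188 in both DMSO libraries only, 28 called lower. These calls support no statement on the rest. In the lists above, ATP1B1, EGR3, DUSP8, ZNF837, ZNF467 and ZNF843 were also called higher in this way, and PRDM4-AS1 and SLCO4A1-AS1 lower. INSM1, a zinc-finger factor of neuroendocrine cells, had 3 and 0 counts in the DMSO libraries and 40 and 65 at 2 h, 32.9 times the DMSO level after scaling (95% interval 11 to 162 from counting), which covers counting error only. CCL3L3, a copy of CCL3, had 116 counts at 2 h against 5 in DMSO over both libraries, 21.8 times the DMSO level after scaling (95% interval 9.09 to 68.5 from counting). CLCF1, a cytokine of the interleukin-6 family, had 88 against 5, 16.6 times the DMSO level after scaling (95% interval 6.84 to 52.3 from counting). SPRR2D, a cornified-envelope gene, had 95 against 6, and IL4I1, an amino acid oxidase, 109 against 13. The transport subunit ATP1B1 of the sodium pump had 51 against 6, and the cholesterol exporter ABCG1 38 against 1. In the other direction ARHGAP19-SLIT1, a readthrough gene, had 6 counts at 2 h against 52 in DMSO, 0.109 times the DMSO level after scaling (95% interval 0.0381 to 0.253 from counting), a call lost with DESeq2 and without the first 2 h library. TRGV1, a T-cell receptor segment, had 16 against 92. Just inside the minimum, AC010245.2 had counts of 7 and 13 in DMSO and 8 and 10 at 2 h. Just outside it, ABCC2 had 4 and 21 in DMSO and 9 and 8 at 2 h. In all 288 genes had a second highest count exactly at the minimum and 282 a count 1 below it.

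**Figure D5:**
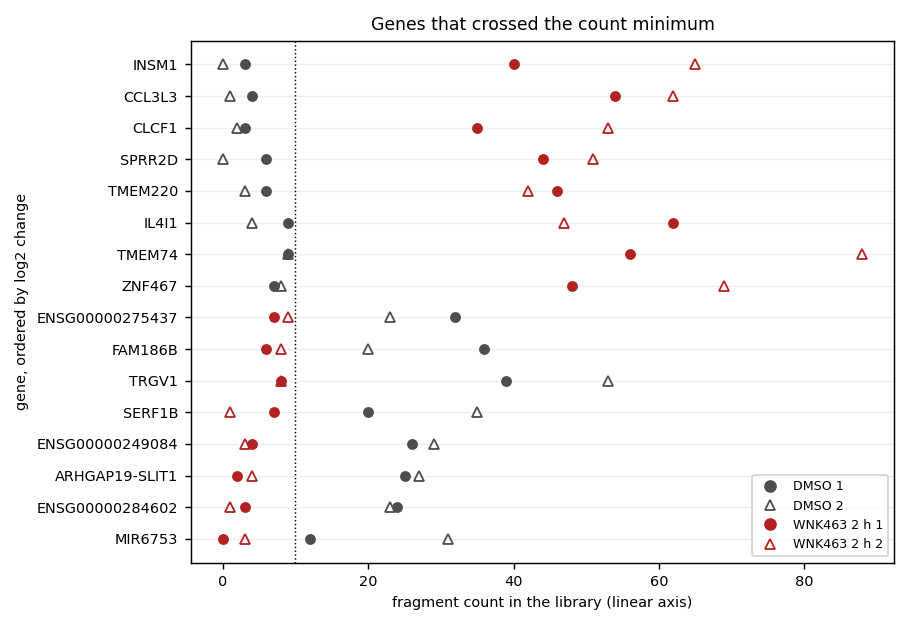
Fragment counts (linear axis) in each of the 4 libraries for the genes named by the rule for crossing the 10-count minimum (dotted line); grey DMSO, red WNK463 2 h. The upper genes lie left of the line in both DMSO libraries and right of it at 2 h, and the lower genes the reverse.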

How the data were processed

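RNA of JJN3 cells was sequenced in 6 libraries, with 2 in each of the groups that the labels give: DMSO, 2 h of WNK463, and 6 h of it. The deposited values are raw fragment counts per gene. Per the file headers they were made with featureCounts 2.0.0 at a minimum mapping quality of 20, without regard to strand, and per the submitters' processing notes after Trimmomatic and STAR on hg38 (no versions stated). The count table holds 60728 genes of GENCODE 34; 1 broken record was rejoined, and 60415 identifiers matched a symbol table. Gene classes came from GENCODE 29. Exon overlap came from the coordinates in the deposited count table.

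Counts were fitted in R 4.3.3 with edgeR 4.0.16 (glmQLFit, glmQLFTest) over all 6 libraries, a mean per group, TMM scaling and a minimum of 10 counts in 2 of the 4 libraries compared. Libraries of 6 h served only to estimate the spread, whose prior carried 40.3 degrees of freedom against 3 per gene (common dispersion 0.00588). Calls were made at a Benjamini-Hochberg adjusted p under 0.05 over 15187 genes. The SE was derived from the F statistic. Replicates were further apart than counting noise alone gives (chi-square over its degrees of freedom 9.17 in DMSO, 4.22 at 2 h), so no pair was taken as 1 library deposited in duplicate. On simulated data of this comparison (15187 genes) changed genes of at least 4 CPM were recovered in 25.7% of 35, 77.4% of 31 and 96.9% of 32 for log2 sizes 0.3, 0.5 and 1. The test made 122 calls there, 9 of them false. Far fewer genes were changed in the simulation than were called in the real data, so these shares need not hold for the latter.

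The genes compared and all lists were chosen with earlier results of these data known. Some genes stand in several lists, MIR17HG, SGK1, CCND2 and BTG2 among them, so the counts of different lists are not independent. Genes named are the 12 largest rises and falls among called genes of at least 4 CPM with groups that do not overlap, the 10 smallest adjusted p, up to 6 called members per list and up to 2 called against the list's majority, a set of pathway genes, up to 8 each way that crossed the count minimum, and genes at its edge. Others were named after their values were seen: EPCAM, PECAM1, HBA1, NFKBIA and MAP3K8, called members that reached the minimum in 1 group only, and the markers at 0. Not all genes the rule takes in are described, and some genes and 1 list are not reported here. Alternatives were other scalings, filters, tools (DESeq2 1.42.0, limma 3.58.1 voom), a replicate block, a stricter threshold and each library left out. Promoter and microRNA sequences came from RefSeq tables of GRCh38.p14. Plots used matplotlib 3.10.9 under Python 3.11.15.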

Additional observations from a re-analysis of the deposited data

How the results depend on the processing

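Across scalings, filters, tools and the fit of the 4 libraries alone, the number of genes called at 2 h was 2202 (DESeq2) to 2799 (minimum of 30 counts), within 1.5 times 2639. At an adjusted p under 0.01, 1560 genes were called, 815 higher and 745 lower, 265 of them by at least 1 on the log2 scale. With 1 library left out the number called was 1445 to 2820, with 764 to 1560 higher, 681 to 1260 lower and 341 to 421 by at least 1. The low counts came with a 2 h library left out, 1744 without the first and 1445 without the second, of which 1593 and 1367 were also called with all libraries; the cause was not tested. A lone library was then assumed to vary like the other groups. The replicate numbers are shared by the groups, but no label ties a number to a batch, and same-numbered libraries deviated together only weakly (r = 0.0815 over 10590 genes), so pairing was not established. With the replicate block 2701 genes were called, 2593 of them shared with the fit without it. Direction reversed for 1 named gene, WNK2, which was not called: its log2 change of -0.07 became 0.0502 without DMSO replicate 1 and 0.0721 without the second 2 h library, over a range of -0.206 to 0.0721 with 1 library left out. Depth limits the lowest genes: at 3 counts, 0.128 to 0.165 CPM, folds have wide counting intervals.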

Other observations

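Reference genes were not flat. Of 26 tested housekeeping genes 9 rose and 1 fell, with a median log2 change of 0.11, GAPDH from 3581 and 3709 to 4152 and 4181 CPM and B2M from 1141 and 1198 to 1359.8 and 1296 CPM, while TBP, the TATA-binding protein, fell from 19.1 and 21.3 to 14 and 11.5 CPM. With library size alone or the 4 libraries alone 4 of them rose, and with either 2 h library left out 3. TBP was not called without the second 2 h library, nor B2M without the first. Of 84 tested cytosolic ribosomal protein genes 11 rose (13.1%) and 1 fell (1.19%), against 8.91% and 8.47% over all genes, with a median of 0.05. With library size alone 2 rose and 3 fell, and with the 4 libraries alone 2 rose and 1 fell. Without the first 2 h library 3 rose and 3 fell, and without the second none did either. Without DMSO replicate 1, 27 rose and none fell, and without DMSO replicate 2, 18 rose and 13 fell. Of 77 mitochondrial ribosomal protein genes 6 fell (7.79%, near the 8.47% over all genes) and none rose. Among the 6 was MRPS25, from 212 and 202 to 142 and 133 CPM (log2 change -0.59 ± 0.0725 SE, adjusted p = 3.06e-08), with 22.4% of its exonic length shared with NR2C2. With library size alone 11 fell, without DMSO replicate 2, 10, and without the second 2 h library 1. Without the first 2 h library 1 rose. Of 47 proteasome genes 1 rose and 1 fell, with 3 and 3 without DMSO replicate 2.

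Calls were unevenly spread over gene length and chromosomes, given here as a description of protein-coding genes of at least 4 CPM. Genes were split by genomic span into 4 sets of 2498 or 2499. In the set with the longest spans, 81782 bases and over, 14.3% were called higher and 6.41% lower, while in the set from 14696 to 34937 bases 8.41% were higher and 13.3% lower. In the set with the shortest spans 11.8% were higher and 10.3% lower, and in that from 34940 to 81744 bases 12.45% and 11.5%. The shares thus did not change steadily with length. Over all tested genes of chromosome 18, 31 of 246 were called higher and 9 lower. On chromosome 19, 63 of 979 were higher and 101 lower. Of these 101, 53 were ZNF genes of the list above, which had 199 tested members there. The falls on chromosome 19 are thus in large part those already described. On chromosome 21, 12 of 168 were higher and 22 lower, on chromosome 22, 28 of 385 and 44, and on chromosome 16, 54 of 724 and 80. The share lower was larger on each of these than on chromosome 19. Over all tested genes 8.91% were higher and 8.47% lower.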
